A study of Arabidopsis thaliana with 16 samples.

Results

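The genes described here are 45 Arabidopsis thaliana loci whose products make and repair meiotic DNA breaks, build the chromosome axis, form crossovers or drive the meiotic divisions. They were listed by locus for their known roles and are 45 of the 33681 genes in the deposited tables. All 45 were among the 21309 genes that could be tested, with 18 to 1217 estimated counts per gene and library.

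RNA was sequenced from floral buds that had not reached pollen mitosis, and whole buds rather than isolated meiocytes were sampled. The 4 groups were wild-type Col-0 and the bhlh89,91 mutant, each under normal and low light, with 4 biological replicates a group. The bhlh89,91 plants came from a cross of the T-DNA insertion lines SALK-123106 and GK-345C06 and carry insertions in the genes of 2 related basic helix-loop-helix (bHLH) factors that act in the tapetum, the anther layer that feeds the meiocytes. Normal light was nominally 200 µmol m–2 s–1 (measured as 205 ± 8.6, SD) and low light was nominally 50 µmol m–2 s–1 (53 ± 5, SD), imposed by shading from the onset of flowering. Library totals ran from 20419619 to 23346158 estimated counts. TPM (an abundance scaled to library size and transcript length) describes levels, and log2 fold changes (log2FC) with their SE come from edgeR's quasi-likelihood test on the counts, adjusted by Benjamini-Hochberg over all 21309 genes. A gene was called changed at an adjusted p under 0.05.

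In meiosis, SPO11 proteins cut the chromosomal DNA, and the cuts are resected and invaded by recombinases, mainly DMC1, so that homologous chromosomes pair. The axis proteins and the synaptonemal complex hold the homologues side by side while the ZMM proteins and MLH3 help turn some joints into crossovers. Cyclins, inhibitors of the anaphase-promoting complex and protectors of cohesion then carry the cell through both divisions. In the anther these genes act early, in the cells that the tapetum surrounds, and 15 of them are also known to act in somatic cells.

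The bHLH89 transcript (AT1G06170) had 41.5 to 51.3 TPM in Col-0 and 18.6 to 24.5 TPM in bhlh89,91 under normal light, and 27.7 to 32.7 against 11.1 to 19.7 TPM under low light. The bHLH91 transcript (AT2G31210) had 26.1 to 34.6 against 21.4 to 25.5 TPM under normal light and 21.1 to 23.6 against 12.2 to 20.9 TPM under low light. RNA from both loci was thus still counted in the insertion mutant. By qRT-PCR under normal growth conditions, the authors reported stronger reductions of both transcripts in this mutant, whose insertions lie in the first exons. Counts over a whole gene do not show whether its transcript is intact. Floral identity genes summed to 1120 to 1370 TPM over the 16 libraries. Late pollen genes summed to 12.7 to 58.2 TPM in Col-0 under normal and 22.2 to 29.1 TPM under low light. In bhlh89,91 these sums were 13.6 to 14.8 and 7.54 to 22.7 TPM. The generative cell genes DUO1 and HTR10 were too low to be tested. Under low light DUO1 had 0.368 to 1.16 TPM and HTR10 0.219 to 0.429 TPM in Col-0, and both had 0 TPM in bhlh89,91. In 3 bhlh89,91 libraries the RNA of MRD1, a gene that overlaps HEI10, was nearly absent, and for each comparison that includes bhlh89,91 the number of called members is also given without these libraries.

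Promoter windows are shown as a feature read from sequence, but the members and the motifs were chosen with earlier results of these data known. In the windows from 250 bases before to 50 bases after the annotated start (RefSeq, TAIR10.1), 9 of 45 members (20%) held an E2F site, here TTTCCCGC, TTTGGCGC, TTTGCCGC or TTTCGCGC on either strand, against 1.76% of the 27443 windows of protein-coding genes. E2F factors drive genes of the G1 to S transition, and 62.5% of 8 replication genes but 0 of 10 mitosis genes held such a site. The sites of the 9 members are in capitals here, 5′ to 3′ on the gene's strand.

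PRD1: cagtctctctcTTTCGCGCtctcacaatgt
ASY3: ggcgaattaagGCGCCAAAattttgagaat
ZYP1a: ccaccgacgtgTTTGGCGCtcaactttatt
BRCA2A: tcgttttcaacTTTCCCGCcgtcttttaac
BRCA2B: tctttttcaacTTTCCCGCctttgtcagaa
COM1: cgcatctcaacGCGCGAAAattccgaaatt
TAM: tcagggaaaagTTTCGCGCtaaactataat
SGO2: tgttgacttggTTTGCCGCcgatccaaccg
JASON: cgttcccggagGCGCGAAAatcctcaagga

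In ASY3 the first base of the site lay 57 bases before the annotated start, in BRCA2A 52 bases before it, and in BRCA2B 14 bases before it. SGO2 was the member whose site lay after the start. The whole windows of ASY3 (chromosome 2) and of the paralogues BRCA2A (chromosome 4) and BRCA2B (chromosome 5) follow, with the site in capitals, since ASY3 and BRCA2A were among the members whose light response differed most clearly between the genotypes.

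ASY3: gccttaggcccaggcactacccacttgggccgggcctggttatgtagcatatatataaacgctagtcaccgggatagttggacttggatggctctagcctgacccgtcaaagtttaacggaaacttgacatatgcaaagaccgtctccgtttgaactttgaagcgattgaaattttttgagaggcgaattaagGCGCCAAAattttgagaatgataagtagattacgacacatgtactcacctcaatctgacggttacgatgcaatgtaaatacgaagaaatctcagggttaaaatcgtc
BRCA2A: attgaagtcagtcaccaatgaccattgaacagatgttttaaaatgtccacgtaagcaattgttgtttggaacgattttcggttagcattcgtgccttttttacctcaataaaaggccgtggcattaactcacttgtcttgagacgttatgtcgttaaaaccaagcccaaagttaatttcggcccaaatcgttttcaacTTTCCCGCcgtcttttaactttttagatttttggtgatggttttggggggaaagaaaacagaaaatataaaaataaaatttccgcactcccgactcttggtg
BRCA2B: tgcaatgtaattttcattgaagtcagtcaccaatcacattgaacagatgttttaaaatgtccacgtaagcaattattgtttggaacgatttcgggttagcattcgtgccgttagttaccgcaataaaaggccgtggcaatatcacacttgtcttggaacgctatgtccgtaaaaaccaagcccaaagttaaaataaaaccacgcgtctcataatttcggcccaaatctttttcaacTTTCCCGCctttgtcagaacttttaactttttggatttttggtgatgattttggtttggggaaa

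The MSA core AACGG, part of the element found in promoters of G2 and M phase genes, stood in 53.3% of the members' windows, in 24.7% of all windows and in 80% of those of the mitosis genes. The G-box CACGTG, a binding sequence of many bHLH factors, stood in 8.89% of the members' windows and 7.68% of all, and the wider E-box CANNTG, which includes the G-box, in 62.2% and 61.7%. A match says only that these letters are in the window.

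Low light lowered the RNA of many meiotic genes in Col-0. Of the 45 members, 27 fell, 3 rose and 15 were not called, beside 28.9% of all tested genes called lower and 29.1% called higher. The median log2FC of the members was -0.28 and that of all tested genes -0.01, and 37 of 45 members lay below 0. By TPM, 27 members had every low light library below every normal light library and 3 had the reverse, beside 26.6% and 26.5% of all tested genes. The changes were small in size, and SWI1 was the member that also passed an adjusted p under 0.01 with an absolute log2FC of at least 1, limits that 8.64% of all tested genes passed. Members known to act only in meiosis gave 19 lower and 1 higher of 30, and those also known to act in somatic cells 8 lower and 2 higher of 15. Summed over the members, 489.2 to 513.6 TPM were measured in the Col-0 libraries under normal light and 396.1 to 420.3 TPM under low light, without overlap. In RNA from whole buds, fewer meiocytes, less RNA per meiocyte and changes in other cells that express these genes cannot be told apart.

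**Figure D1:**
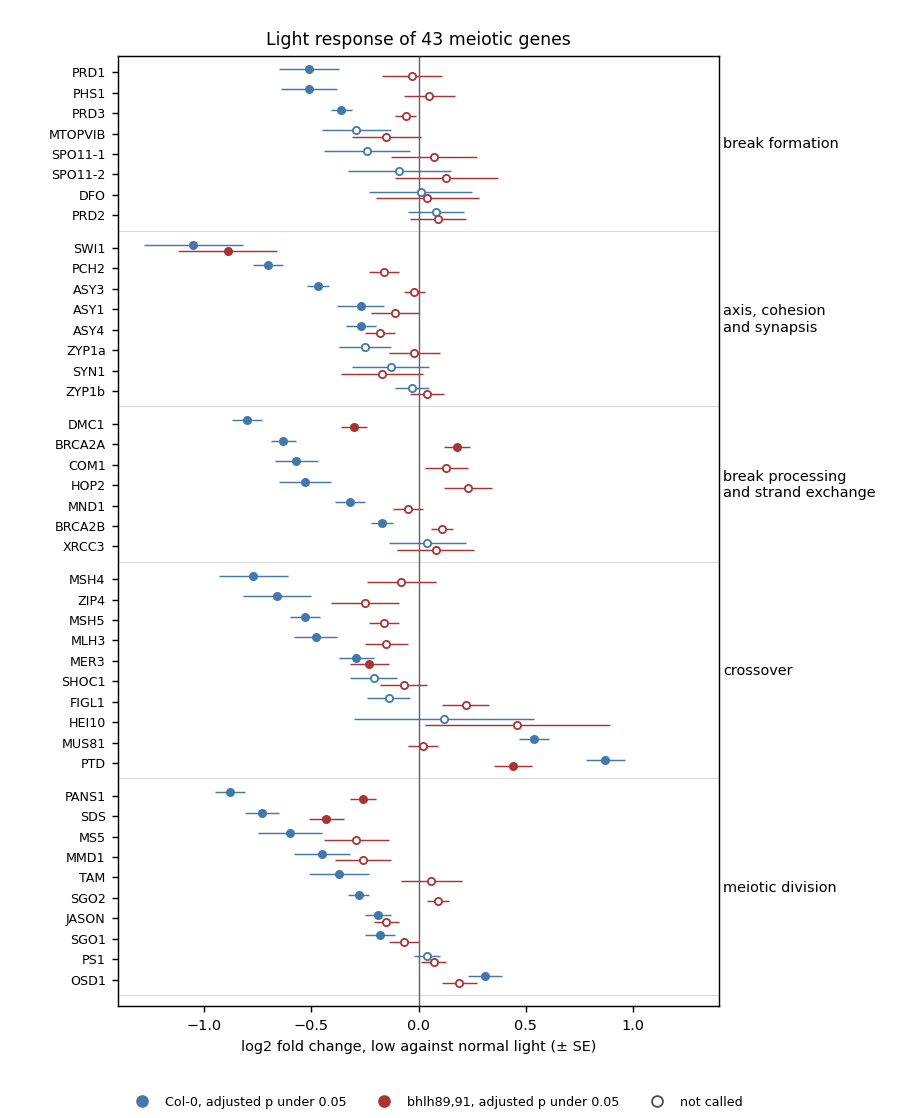
Log2 fold change of 43 of the 45 members under low against normal light (x axis, ± SE), in Col-0 (blue) and bhlh89,91 (red), by role. Filled points passed an adjusted p under 0.05. In Col-0, 27 of the points shown fell and 3 rose, and in bhlh89,91 most points lie nearer to 0.

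Among the 8 genes of break formation, 3 fell in Col-0 and the genes of the cutting complex itself were not called. The latter had few counts (33 to 67 for SPO11-1, 18 to 41 for SPO11-2 and 42 to 69 for MTOPVIB). At that depth, log2FCs near the members' median of -0.28 were not called. SPO11-1 (AT3G13170), a catalytic subunit, had 2.82, 3.2, 2.64 and 3.08 TPM under normal and 2.99, 2.23, 2.1 and 2.59 TPM under low light, which overlap (log2FC -0.24 ± 0.20, adjusted p = 0.317). In bhlh89,91 it had 2.49, 2.69, 1.59 and 3.37 TPM under normal and 2.81, 3.22, 1.98 and 2.42 TPM under low light. Its libraries overlapped in every comparison. SPO11-2 (AT1G63990, -0.09 ± 0.24) and MTOPVIB (AT1G60460, -0.29 ± 0.16), the other parts of the topoisomerase VI-like complex, were not called either. The accessory factors PRD1 (AT4G14180, -0.51 ± 0.14, adjusted p = 0.00635) and PRD3 (AT1G01690, -0.36 ± 0.05, adjusted p = 1.94e-05) fell, whereas PRD2 (AT5G57880, 0.08 ± 0.13) and DFO (AT1G07060, 0.01 ± 0.24) were not called. A gene on the opposite strand overlaps 999 of the 5896 bases of PRD1, and 20.7% of its 31-base words occurred in another gene, so its reads may be mixed. PHS1 (AT1G10710), which moves RAD50 into the nucleus, fell by 0.51 ± 0.13 (adjusted p = 0.0026).

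Of the 8 axis, cohesion and synapsis genes, 5 fell in Col-0. ASY3 (AT2G46980), a coiled-coil protein of the axis, had 17.6, 15.9, 16.9 and 16.4 TPM under normal and 12.3, 11.9, 11.9 and 11.9 TPM under low light. The bhlh89,91 libraries had 16.2, 17.5, 16.9 and 19.3 TPM under normal and 16.8, 16.4, 18.3 and 16.5 TPM under low light. The 4 Col-0 low light libraries were thus below all 12 others. The log2FC was -0.47 ± 0.05 in Col-0 (adjusted p = 9.73e-07) and -0.02 ± 0.05, not called, in bhlh89,91.

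PCH2 (AT4G24710), an ATPase that remodels the axis protein ASY1 (AT1G67370), was likewise lowest in Col-0 under low light. It had 11.2, 11.3, 9.80 and 11.5 TPM in Col-0 under normal light and 6.63, 6.78, 6.03 and 7.27 TPM under low light. Its values in bhlh89,91 were 10.4, 10.1, 10.3 and 11.5 TPM under normal and 8.92, 10.1, 9.32 and 9.04 TPM under low light. It fell by 0.70 ± 0.07 in Col-0 (adjusted p = 8.65e-07), and its change in bhlh89,91 (-0.16 ± 0.07, adjusted p = 0.101) was not called. SWI1 (AT5G51330), which protects sister chromatid cohesion early in meiosis, was among the least abundant members and fell in both genotypes, by 1.05 ± 0.23 in Col-0 (adjusted p = 0.00107) and by 0.89 ± 0.23 in bhlh89,91 (adjusted p = 0.00709, and 0.0606 without the 3 libraries that lacked MRD1 RNA).

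ASY1, the HORMA domain protein of the axis, had 5.18, 5.85, 5.34 and 4.81 TPM in Col-0 under normal and 4.12, 4.58, 4.38 and 4.39 TPM under low light. For bhlh89,91 the values were 3.76, 4.05, 4.61 and 4.04 TPM under normal and 2.96, 4.39, 4.15 and 3.53 TPM under low light. All 4 normal light libraries of Col-0 were above every other library. Its fall in Col-0 (0.27 ± 0.11, adjusted p = 0.0457) was close to the limit and was lost under 14 of 27 alternatives, with adjusted p up to 0.129. ASY4 (AT2G33793), another axis protein and the third most abundant member by TPM, fell by 0.27 ± 0.07 in Col-0 (adjusted p = 0.00575).

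The genes for the synaptonemal complex and for the meiotic cohesin were not called for light in either genotype. SYN1 (AT5G05490), the meiotic kleisin also known as REC8, had 3.31, 3.93, 3.53 and 2.34 TPM in Col-0 under normal and 2.68, 3.39, 2.46 and 3.40 TPM under low light. In bhlh89,91 it had 2.17, 2.82, 2.27 and 3.03 TPM under normal and 2.53, 2.56, 2.49 and 1.43 TPM under low light. The groups overlapped, and the log2FCs were -0.13 ± 0.18 and -0.17 ± 0.19. ZYP1a (AT1G22260) and ZYP1b (AT1G22275) encode near-identical transverse filament proteins. Their coding sequences were 93.1% identical over the aligned bases. Of the 31-base words, 18.1% of those of ZYP1a and 14.3% of those of ZYP1b also occurred in another gene. For ZYP1a, 449 such words were shared with ZYP1b and 107 with the overlapping gene AT1G22250. The first 90 coding bases are shown to make clear what separates the copies, with the 10 differing bases in capitals.

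ZYP1a: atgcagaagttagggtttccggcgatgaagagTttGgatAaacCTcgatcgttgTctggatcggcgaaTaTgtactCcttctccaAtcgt
ZYP1b: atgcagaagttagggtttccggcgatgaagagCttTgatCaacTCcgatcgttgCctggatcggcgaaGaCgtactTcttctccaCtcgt

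ZYP1a had 5.47, 5.29, 4.31 and 5.36 TPM in Col-0 under normal and 5.05, 4.08, 4.03 and 3.94 TPM under low light. The bhlh89,91 libraries had 4.29, 5.14, 3.74 and 3.84 TPM under normal and 4.09, 4.82, 4.05 and 3.63 TPM under low light. The light groups overlapped in both genotypes, with a log2FC of -0.25 ± 0.12 in Col-0 (adjusted p = 0.0826).

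ZYP1b had 6.34, 5.62, 5.46 and 5.87 TPM in Col-0 under normal and 6.16, 5.29, 5.37 and 5.83 TPM under low light. Its values in bhlh89,91 were 4.98, 5.28, 4.66 and 5.66 TPM under normal and 5.29, 5.66, 5.61 and 4.27 TPM under low light. The groups overlapped throughout, with a log2FC of -0.03 ± 0.08 in Col-0 (adjusted p = 0.754). The counting may have split reads between these copies, so each level is uncertain to an extent that was not measured.

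Of the 8 genes of break processing and strand exchange, 6 fell in Col-0 under low light, and in bhlh89,91 DMC1 (AT3G22880) fell and BRCA2A (AT4G00020) rose. DMC1, the meiosis-specific recombinase, had 39.2, 37.6, 37.6 and 34.6 TPM in Col-0 under normal and 22.6, 20.2, 22.1 and 20.4 TPM under low light. For bhlh89,91 the values were 36.3, 42.4, 43.6 and 43 TPM under normal and 33.7, 34.4, 35 and 28.8 TPM under low light. No light group overlapped the other in either genotype. DMC1 fell by 0.80 ± 0.07 in Col-0 (adjusted p = 1.08e-07), or 1.74-fold, and by 0.30 ± 0.06 in bhlh89,91 (adjusted p = 0.00189).

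BRCA2A, which loads the recombinases onto DNA, had 14.3, 14.1, 13.1 and 14.7 TPM in Col-0 under normal and 9.71, 8.83, 8.76 and 8.94 TPM under low light. In bhlh89,91 it had 11.7, 12.9, 10.5 and 12.2 TPM under normal and 12.8, 13.6, 13.5 and 12.8 TPM under low light. The mutant groups overlapped while the Col-0 groups were far apart. It fell by 0.63 ± 0.06 in Col-0 (adjusted p = 4.29e-07) and rose by 0.18 ± 0.06 in bhlh89,91 (adjusted p = 0.0293), a rise that was lost under 10 of 27 alternatives, with adjusted p up to 0.1.

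Its paralogue BRCA2B (AT5G01630) had 12.4, 12.3, 12.3 and 12.1 TPM in Col-0 under normal and 11.6, 10.7, 10.4 and 10.6 TPM under low light. The bhlh89,91 libraries had 10.7, 10.5, 9.41 and 10.2 TPM under normal and 10.5, 11.3, 11.5 and 10.2 TPM under low light. The Col-0 normal light libraries were above all others. BRCA2B fell by 0.17 ± 0.05 in Col-0 (adjusted p = 0.00651). The coding sequences of these paralogues were 96.1% identical, 29.8% of the 31-base words of BRCA2A and 34.2% of those of BRCA2B occurred in another gene, and the first 90 coding bases differ at the 2 bases in capitals.

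BRCA2A: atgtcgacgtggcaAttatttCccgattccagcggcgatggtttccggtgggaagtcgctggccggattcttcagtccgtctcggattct
BRCA2B: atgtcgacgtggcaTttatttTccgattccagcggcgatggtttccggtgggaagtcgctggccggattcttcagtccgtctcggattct

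The separate values of the copies therefore rest on the reads that hold such differences. HOP2 (AT1G13330, -0.53 ± 0.12) and MND1 (AT4G29170, -0.32 ± 0.07), partners that help DMC1 invade the homologue, and COM1 (AT3G52115, -0.57 ± 0.10), which resects the break ends, also fell in Col-0, with adjusted p of 0.00111, 0.00183 and 0.000125. HOP2 shares 1151 of its 2664 bases with a gene on the opposite strand, and 9.19% of its 31-base words occurred in another gene. Reads of HOP2 may thus be mixed. XRCC3 (AT5G57450, 0.04 ± 0.18), which also repairs somatic breaks, was not called.

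**Figure D2:**
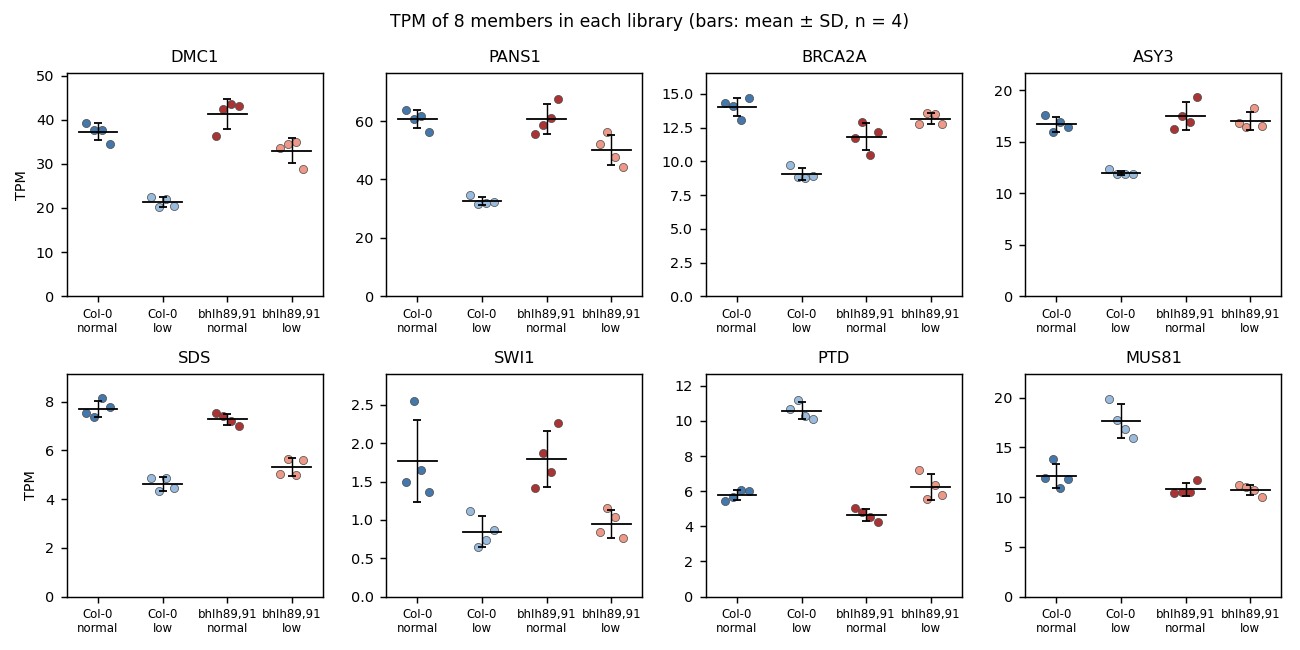
TPM of 8 members (y axis, from 0) in the 16 libraries, 1 point per library, by genotype and light (x axis). Lines show the mean ± SD of 4 libraries. DMC1, PANS1, BRCA2A and ASY3 were lowest in Col-0 under low light, where PTD and MUS81 were highest, and SDS and SWI1 were lower under low light in both genotypes.

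Of the 11 crossover genes, 5 fell and 2 rose in Col-0. MSH5 (AT3G20475), which with MSH4 (AT4G17380) forms the clamp that holds crossover intermediates, had 6.71, 6.57, 6.51 and 7.06 TPM under normal and 4.76, 4.33, 4.58 and 4.79 TPM under low light. Its values in bhlh89,91 were 6.71, 6.71, 5.95 and 6.19 TPM under normal and 5.25, 6.30, 5.76 and 5.25 TPM under low light. The Col-0 groups did not overlap and the mutant groups did. MSH5 fell by 0.53 ± 0.07 in Col-0 (adjusted p = 1.31e-05), and MSH4 (-0.77 ± 0.16), ZIP4 (AT5G48390, -0.66 ± 0.16), MLH3 (AT4G35520, -0.48 ± 0.10) and the helicase MER3 (AT3G27730, -0.29 ± 0.08) fell with it. SHOC1 (AT5G52290, -0.21 ± 0.11) and FIGL1 (AT3G27120, -0.14 ± 0.10), the latter a limiter of crossovers, were not called.

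The crossover genes that rose were PTD (AT1G12790), the partner of SHOC1, and MUS81 (AT4G30870), a nuclease of the crossover route without interference. PTD had 5.44, 5.67, 6.05 and 6 TPM in Col-0 under normal and 10.7, 11.2, 10.3 and 10.1 TPM under low light. For bhlh89,91 the values were 5.05, 4.82, 4.52 and 4.24 TPM under normal and 7.23, 5.57, 6.35 and 5.81 TPM under low light. It rose in both genotypes, 1.83-fold in Col-0 (log2FC 0.87 ± 0.09, adjusted p = 7.8e-07) and by a log2FC of 0.44 ± 0.09 in bhlh89,91 (adjusted p = 0.00188).

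MUS81 had 11.9, 13.8, 10.9 and 11.8 TPM in Col-0 under normal and 19.9, 17.8, 16.9 and 15.9 TPM under low light. In bhlh89,91 it had 10.4, 10.5, 10.5 and 11.7 TPM under normal and 11.2, 11, 10.7 and 10 TPM under low light. Col-0 under low light was above all other libraries. It rose in Col-0 (log2FC 0.54 ± 0.07, adjusted p = 1.02e-05), and its log2FC in bhlh89,91 was 0.02 ± 0.07 (adjusted p = 0.887).

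HEI10 (AT1G53490), the E3 ligase whose dosage sets crossover number in Arabidopsis, did not follow the groups. It had 18.4, 18.9, 17.1 and 18.6 TPM in Col-0 under normal and 19.4, 20.5, 18.3 and 20.6 TPM under low light. The bhlh89,91 libraries had 5.10, 18.1, 18.1 and 4.51 TPM under normal and 21.4, 17.8, 19.2 and 4.40 TPM under low light. The 3 low libraries lay between 4.40 and 5.10 TPM, the 13 others between 17.1 and 21.4 TPM, and no comparison of groups was called for HEI10 (SE of the log2FC in bhlh89,91 0.43).

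MRD1 (AT1G53480), chosen after its values were seen, lies on the opposite strand and overlaps 1446 of the 3686 bases of HEI10, and 39.6% of the 31-base words of HEI10 also occurred in another gene. MRD1 had 0.198, 0.293 and 0.0637 TPM in the same 3 libraries (3, 5 and 1 counts) and 37.6 to 59.8 TPM in the other 13. The neighbours on the far side of HEI10 were not split in this way, with 28.4 to 41.6 TPM in the 3 libraries against 17.9 to 39.9 TPM in the 13 for MUM4 (AT1G53500), and 29.6 to 41.1 against 29.6 to 46.2 TPM for MPK18 (AT1G53510). Over all 21309 genes, HEI10 and MRD1 were the 2 genes whose values in these 3 libraries lay more than 1 log2 unit below every other library, and the pseudogene AT4G09455 lay that far above. Since strand use in the counting is not stated, reads of HEI10 and MRD1 cannot be told apart where they overlap.

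**Figure D3:**
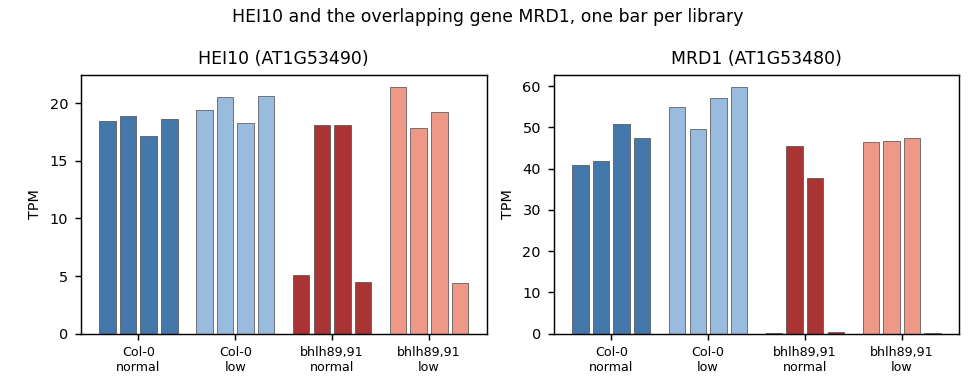
TPM of HEI10 (left) and of the overlapping gene MRD1 (right), 1 bar per library, by genotype and light. The same 3 bhlh89,91 libraries, 2 from normal and 1 from low light, were low for HEI10 (4.40 to 5.10 TPM) and nearly without MRD1 (0.0637 to 0.293 TPM).

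The genes of the meiotic divisions fell in Col-0 in 8 of 10 cases, and 1 rose. PANS1 (AT3G14190), which protects centromeric cohesion and was the most abundant member by TPM, had 63.8, 60.8, 61.6 and 56.3 TPM under normal and 34.7, 31.5, 32 and 32.4 TPM under low light. Its values in bhlh89,91 were 55.4, 58.8, 61.1 and 67.6 TPM under normal and 52.2, 56.1, 47.6 and 44.2 TPM under low light. All Col-0 low light libraries lay below the 12 others. It fell by 0.88 ± 0.07 in Col-0 (adjusted p = 3.95e-08), or 1.84-fold, and by 0.26 ± 0.06 in bhlh89,91 (adjusted p = 0.00596, and 0.0535 without the 3 libraries that lacked MRD1 RNA).

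SDS (AT1G14750), a cyclin-like protein needed for DMC1 to act between homologues, had 7.54, 7.37, 8.13 and 7.78 TPM in Col-0 under normal and 4.86, 4.33, 4.86 and 4.44 TPM under low light. For bhlh89,91 the values were 7.52, 7.39, 7.22 and 7 TPM under normal and 5.01, 5.66, 4.98 and 5.60 TPM under low light. The light groups were apart in both genotypes. SDS fell by 0.73 ± 0.08 in Col-0 (adjusted p = 1.12e-06) and by 0.43 ± 0.08 in bhlh89,91 (adjusted p = 0.000529).

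MMD1 (AT1G66170), a PHD finger protein of male meiosis, had 3.18, 3.17, 2.56 and 3.28 TPM in Col-0 under normal and 2.20, 2.17, 2.08 and 2.46 TPM under low light. In bhlh89,91 it had 2.18, 2.57, 2.13 and 1.99 TPM under normal and 1.73, 2.30, 1.76 and 1.51 TPM under low light. It fell by 0.45 ± 0.13 in Col-0 (adjusted p = 0.00859). Its change in bhlh89,91 (-0.26 ± 0.13) was not called.

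TAM (AT1G77390), a cyclin of both divisions, had 10.8, 9.46, 10 and 12 TPM in Col-0 under normal and 8.78, 6.91, 7.66 and 9.40 TPM under low light. The bhlh89,91 libraries had 8.67, 7.20, 8.21 and 10.2 TPM under normal and 9.70, 10.8, 8.26 and 6.46 TPM under low light. It fell by 0.37 ± 0.14 in Col-0 (adjusted p = 0.0375), a call lost under 6 of 27 alternatives. MS5 (AT4G20900, -0.60 ± 0.15), needed to leave the second division, SGO2 (AT5G04320, -0.28 ± 0.05) and SGO1 (AT3G10440, -0.18 ± 0.07), which protect cohesion, and JASON (AT1G06660, -0.19 ± 0.06), which orients spindles, fell as well, the call for SGO1 being lost under 10 of 27 alternatives. A gene on the opposite strand overlaps 457 of the 1742 bases of MS5, and 31.7% of its 31-base words occurred in another gene. Reads of MS5 may thus be mixed with those of other genes. OSD1 (AT3G57860), an inhibitor of the anaphase-promoting complex, rose (0.31 ± 0.08, adjusted p = 0.00329). PS1 (AT1G34355), a spindle factor like JASON, had 12.1, 11.4, 11.6 and 11.5 TPM under normal and 11.6, 12.6, 12.2 and 11.1 TPM under low light in Col-0 (log2FC 0.04 ± 0.06).

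In bhlh89,91, low light changed fewer members. DMC1, PANS1, SDS, SWI1 and MER3 fell, PTD and BRCA2A rose, and 38 were not called, beside 16.6% of all tested genes called lower and 16.7% higher. The median log2FC was -0.02. Without the 3 libraries that lacked MRD1 RNA, which left 2 bhlh89,91 libraries under normal and 3 under low light, 3 members were called. The fall of MER3 (0.23 ± 0.09, adjusted p = 0.0481) was lost under 23 of 27 alternatives, with adjusted p up to 0.361. Of the 27 members that fell in Col-0, 20 lay below 0 in bhlh89,91, and all 27 had a log2FC in bhlh89,91 that was closer to 0 or above it. The latter held for 89.1% of all 6148 genes called lower in Col-0.

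Whether the genotypes differed in their response to light was tested as an interaction, which was above 0 and called for 13 members and below 0 and called for MUS81 and PTD, beside 11.9% and 11.1% of all tested genes, and the median over the members was 0.28. By role, 5 of 8 strand exchange genes were called above 0, namely BRCA2A (0.80 ± 0.08, adjusted p = 3.93e-05), HOP2 (0.76 ± 0.16, adjusted p = 0.00372), COM1 (0.70 ± 0.14, adjusted p = 0.00214), DMC1 (0.49 ± 0.09, adjusted p = 0.00157) and BRCA2B (0.28 ± 0.07, adjusted p = 0.00763). The axis genes PCH2 (0.55 ± 0.10, adjusted p = 0.0015) and ASY3 (0.46 ± 0.07, adjusted p = 0.00039), the division genes PANS1 (0.63 ± 0.09, adjusted p = 0.00032) and SGO2 (0.38 ± 0.08, adjusted p = 0.00272), and PRD3, PHS1, MSH4 and MSH5 followed. SDS (0.30 ± 0.11, adjusted p = 0.0576) and SWI1 (0.16 ± 0.32, adjusted p = 0.761) were not called, with wide errors for SWI1. The calls for PHS1 and MSH4 were lost under 10 and 11 of 26 alternatives. Without the 3 libraries that lacked MRD1 RNA, 13 members were called above 0 and 1 below 0, and PTD was no longer called (adjusted p = 0.0531). This test and the comparison of Col-0 light share the same Col-0 libraries.

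Between the genotypes under low light, 14 members were higher and 4 lower in bhlh89,91, beside 25.1% and 24.3% of all tested genes. ASY3 (0.53 ± 0.05, adjusted p = 9.27e-07), DMC1 (0.65 ± 0.07, adjusted p = 1.96e-06), PANS1 (0.64 ± 0.07, adjusted p = 2.28e-06) and BRCA2A (0.56 ± 0.06, adjusted p = 2.85e-06) were higher with the smallest p. Others that were higher, by 0.22 to 0.64, included HOP2, PCH2, COM1, PHS1, MSH5, MND1, PRD3, SGO2 and SDS. MUS81 (-0.69 ± 0.07, adjusted p = 2.51e-06), PTD (-0.74 ± 0.09, adjusted p = 8.41e-06), OSD1 (-0.29 ± 0.08) and PS1 (-0.23 ± 0.06) were lower. The calls for SDS and PHS1 were lost under 7 and 4 of 27 alternatives, and 15 members were called higher and 5 lower without the 3 libraries that lacked MRD1 RNA. The Col-0 low light libraries enter this comparison and the light comparison of Col-0.

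Under normal light the genotypes differed less, with 6 members lower in bhlh89,91 and 0 higher by edgeR, limma-voom or DESeq2 (1 higher at an unadjusted p under 0.05), beside 7.66% of all tested genes called lower and 16.7% called in either direction. BRCA2B (-0.25 ± 0.05, adjusted p = 0.00261), PS1 (-0.26 ± 0.06, adjusted p = 0.00597), BRCA2A (-0.24 ± 0.06, adjusted p = 0.0124), MMD1 (-0.45 ± 0.13, adjusted p = 0.0285), PTD (-0.30 ± 0.09, adjusted p = 0.0342) and ASY1 (-0.35 ± 0.11, adjusted p = 0.0394) were lower. PS1 in bhlh89,91 had 8.82, 10.4, 9.19 and 10.1 TPM under normal and 9.89, 9.74, 9.69 and 10.4 TPM under low light, below every Col-0 library. The number of calls fell to 3 without library 4 of bhlh89,91, or without library 2 or library 4 of Col-0, all at normal light. Without the 3 libraries that lacked MRD1 RNA, 3 members were called lower and 1 higher, and without library 1 of bhlh89,91 at normal light alone, 5 lower and 1 higher. The calls for ASY1, PTD and MMD1 were lost under 10, 9 and 7 of 27 alternatives. The median log2FC was -0.15.

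Of the 9 members with an E2F site shown above, 8 fell in Col-0 under low light, all except ZYP1a, and of the 36 others 19 fell, beside 28.9% of all tested genes and 43.3% of the 404 tested genes with an E2F site. The difference between members with and without a site was not tested, and the motifs were chosen with earlier results of these data known. The paralogues BRCA2A and BRCA2B both count among the 8. Other sets of genes moved along with the members. All 8 replication genes (MCM2 to MCM7 and both PCNA genes) fell in Col-0, with a median log2FC of -0.85, while their median was 0.00 in bhlh89,91. Their summed level went from 407 to 451 TPM down to 218 to 241 TPM in Col-0, and was 337 to 397 and 337 to 383 TPM in bhlh89,91. Of 10 mitosis genes, 8 fell in Col-0 (490 to 543 against 387 to 402 TPM) and 4 fell in bhlh89,91 (491 to 590 against 466 to 480 TPM). Over all tested genes, 16.6% were called lower in bhlh89,91. The part of cell proliferation in the members' values was not tested.

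Some stage and tissue markers were also called for light. Of all tested genes, 28.9% were called lower and 29.1% higher in Col-0, and 16.6% and 16.7% in bhlh89,91. Of 7 tapetum genes, 5 fell and 1 rose in Col-0, with sums of 1670 to 2240 TPM under normal and 1690 to 2070 TPM under low light. The Col-0 sums join opposite changes, since the mean of A9 went from 1160 to 638 TPM and that of ATA7 from 427 to 1060 TPM. In bhlh89,91 1 tapetum gene fell, with sums of 1240 to 2420 and 1080 to 2070 TPM. The 3 genes expressed around the tetrad stage all fell in Col-0 (1250 to 1770 against 752 to 1050 TPM), and 2 fell in bhlh89,91 (1620 to 1970 against 806 to 1320 TPM). Of 6 ovule genes, 4 rose in Col-0 (136 to 148 against 162 to 185 TPM) and 4 rose in bhlh89,91 (153 to 165 against 155 to 216 TPM). Of 7 anther specification genes, 3 fell in Col-0 (233 to 263 against 210 to 229 TPM) and 2 fell in bhlh89,91 (232 to 248 against 211 to 221 TPM). Among 7 tested late pollen genes, 3 fell and 1 rose in Col-0, and 1 fell in bhlh89,91. ACT12 was the late pollen gene that rose in Col-0 (log2FC 1.84 ± 0.51), and it was not called in bhlh89,91 (-0.77 ± 0.55). Among 7 floral identity genes, 3 fell and 3 rose in Col-0, with log2FCs from -0.60 to 0.16, and 3 fell in bhlh89,91. The part of bud stage or tissue make-up in the members' values was not tested.

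**Figure D4:**
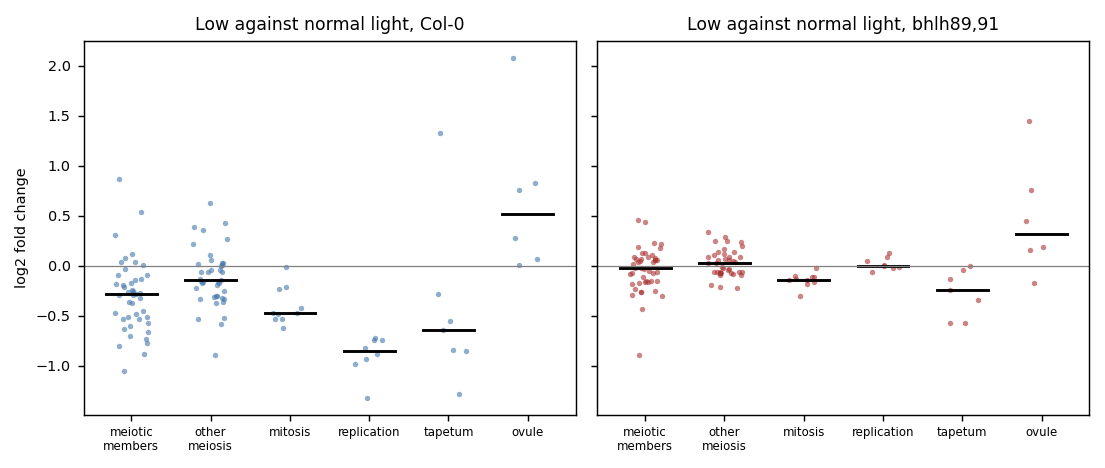
Log2 fold change under low against normal light (y axis) of single genes (points) in 6 gene sets, with the median of each set as a line, in Col-0 (left) and bhlh89,91 (right). In Col-0 the medians were -0.28 for the 45 members and -0.85 for the 8 replication genes, and in bhlh89,91 they were -0.02 and 0.00.

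A list of 40 further genes with a part in meiosis was examined, many of which also act in somatic cells. In Col-0 under low light it gave 17 lower and 6 higher (median -0.14), beside 28.9% and 29.1% of all tested genes. In bhlh89,91 it gave 1 lower and 6 higher (median 0.03), beside 16.6% and 16.7%. In Col-0 the cohesin kleisin SYN3 (-0.89), the anaphase activator CDC20.1 (-0.31) and the helicase RECQ4A (-0.32) fell with the smallest adjusted p, and the kinase CDKA;1 (0.39), RAD51D (0.63) and the break-sensing kinase ATM (0.43) rose. In bhlh89,91 TES (-0.19), a kinesin of male cytokinesis, fell, and the mismatch repair gene PMS1 (0.25) and RAD50 (0.24) were among the 6 that rose. The interaction was called above 0 for 12 of the 40 genes, among them SYN3 (0.84), and below 0 for 3, among them CDKA;1 (-0.33). Over all tested genes these shares were 11.9% and 11.1%.

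By level over all 16 libraries, PANS1 (mean 51 TPM), DMC1 (33.2), ASY4 (30), JASON (23.5) and OSD1 (22.3) were the most abundant members, and PRD1 (1.37), SWI1 (1.34) and SPO11-2 (1.07) the least. PRD1, SWI1 and SPO11-2 overlapped in their library values.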

How the data were processed

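RNA from 16 bud samples was sequenced on the BGISEQ-500 platform. The authors mapped reads with Salmon to the AtRTD2 transcript set and used tximport to obtain gene-level values, and deposited estimated counts (scaled by transcript length and library size) and TPM for 33681 genes. No genome build or strand setting is given in the sources used here, so no coordinates are printed. The columns carry numbers that are not those of the labels, so each column was assigned to its group alone, and library numbers are column numbers.

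Estimated counts were rounded, and the 21309 genes that reached 1 CPM in any library were tested. R 4.3.3 with edgeR 4.0.16 (TMM, 1 mean per group, all 16 libraries, 12 residual degrees of freedom, quasi-likelihood F test, Benjamini-Hochberg adjustment) was used, and each SE was derived from the log2FC and its F statistic. Alternatives used limma 3.58.1, DESeq2 1.42.0, other scalings and filters, log2(TPM + 1) and log2(TPM + 0.1), and each library left out in turn. The code was tested on simulated data. The labels call the samples biological replicates. Their correlation within groups was checked, and no library pair agreed within sampling noise.

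The members, the gene lists and the motifs were chosen with earlier results of these data known. Values in every library are given for SPO11-1, DMC1, ASY1, ZYP1a, ZYP1b, SYN1, MSH5, HEI10, TAM, SDS and MMD1 and for the 4 members with the smallest adjusted p in each of the 5 comparisons, and of the other meiosis genes at most 3 per direction. Sequences come from RefSeq (TAIR10.1), matched by locus for 45 of 45 members. Of these, 22 overlap another annotated gene and 24 share at least 1 word of 31 bases with another gene. Results for 2 members and for some other genes are counted in the totals but are not reported singly here.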

Additional observations from a re-analysis of the deposited data

Results flagged for a closer look

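The light response differed between the genotypes by the interaction test of edgeR for 15 members. The interaction log2FC was 0.80 for BRCA2A, 0.76 for HOP2, 0.70 for COM1, 0.68 for MSH4, 0.63 for PANS1, 0.56 for PHS1, 0.55 for PCH2, 0.49 for DMC1, 0.46 for ASY3, 0.38 for SGO2, 0.37 for MSH5, 0.30 for PRD3 and 0.28 for BRCA2B. It was -0.53 for MUS81 and -0.43 for PTD.

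In 9 of 172 checks, a library lay far from the others of its group. Chance alone gives about 1 in 20. Under low light in Col-0, PRD1 had 0.917 TPM in library 2 (others 1.16 to 1.18), ASY3 had 12.3 TPM in library 1 (others 11.9) and ZYP1a had 5.05 TPM in library 1 (others 3.94 to 4.08). Library 3 of Col-0 under normal light had 4.31 TPM of ZYP1a (others 5.29 to 5.47), 3.11 TPM of XRCC3 (others 1.87 to 2.07) and 2.56 TPM of MMD1 (others 3.17 to 3.28). In bhlh89,91 under normal light, DMC1 had 36.3 TPM in library 1 (others 42.4 to 43.6), and library 4 had 11.7 TPM of MUS81 (others 10.4 to 10.5). SYN1 had 1.43 TPM in library 4 of bhlh89,91 under low light (others 2.49 to 2.56). Libraries 1 and 4 of the normal light group and library 4 of the low light group are also the bhlh89,91 libraries that lacked MRD1 RNA.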

How the results depend on the processing

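Of 76 calls for single members over the 5 comparisons, 58 kept their direction and stayed called under every alternative, 18 lost the call under at least 1 (12 under a planned method, 14 without a library), and 0 reversed. With each library left out in turn, 26 to 30 members were called for light in Col-0, 5 to 10 for light in bhlh89,91, 15 to 19 for genotype under low light and 13 to 18 for the interaction. For genotype under normal light the count ran from 3 to 7, and the median log2FC of the interaction from 0.19 to 0.32, lowest without library 2 of bhlh89,91 under low light. The cause was not tested. Leaving out the 3 bhlh89,91 libraries without MRD1 RNA, chosen after seeing the data, gave 3 called members for light in bhlh89,91 in place of 7, with fewer samples in the fit. Scaling by library size alone gave a median over all genes between -0.04 and 0.02. No paired analysis was possible because the columns carry no replicate numbers of the labels. Members with few counts, such as SPO11-2 with 18 to 41, had SEs near 0.24. Changes of this size or smaller were not detectable at this depth, and larger ones could also be missed.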
